A study of Mus musculus with 17 samples.

Results

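The genes examined here were those of the mouse major histocompatibility complex (MHC), the H2 complex, and of the presentation of antigen. Members were all genes whose name on the array starts with H2-, together with B2m, Cd74 and Ciita, each read by its probe with the highest mean over all arrays. They numbered 39 of the 28090 gene names on the array, 25 of class I, 12 of class II and 2 (H2-Ke2 and H2-Ke6) of neither class. The array carried 66 probes for them. The scanner files of some arrays name the mm7 build and those of the others mm9. On mm9, the chosen probes of the H2 genes lay on chromosome 17, such as H2-K1 at chr17:34133055-34133114 and H2-Ab1 at chr17:34406059-34406118. That of B2m lay at chr2:121978401-121978460. The place of the probes in exons was not analysed here. In all 17 arrays, 13 class I and 9 class II genes were well above background, and 4 class I genes were well above background in none.

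The mRNA came from 6 populations sorted by FACS from the bone marrow of female C57Bl/6 mice of 6 to 8 weeks, with 10 to 20 mice pooled per replicate. All cells were lineage negative and c-kit+. The HSC subsets, sorted together, were long-term HSCs (LT-HSC, Sca1+CD34-FLT3-), short-term HSCs (ST-HSC, Sca1+CD34+FLT3-) and multipotent progenitors (MPP, Sca1+CD34+FLT3+). The myeloid populations, taken in another sort, were common myeloid progenitors (CMP, Sca1-, mid for CD34 and the Fc gamma receptor), granulocyte-monocyte progenitors (GMP, Sca1-CD34+ and Fc gamma receptor positive) and megakaryocyte-erythroid progenitors (MEP, Sca1- and negative for CD34 and the Fc gamma receptor). No agent or genetic change was applied. There were 2 arrays of LT-HSC, of which 1 held pooled replicates 2 and 3, and 3 arrays of each other population. Levels are log2 intensities after quantile normalization, so that a step of 1 is a doubling, and levels of different genes cannot be set against each other.

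Class I molecules, a heavy chain paired with beta-2 microglobulin (B2m), show peptides made by the proteasome to CD8 T cells and are made by nearly all nucleated cells. Class II molecules, an alpha and a beta chain, show peptides from the endosome to CD4 T cells and are best known from B cells, dendritic cells and macrophages. The invariant chain Cd74 escorts class II to the endosome, where H2-DM exchanges its last fragment for peptide and H2-O restrains H2-DM. Ciita is the coactivator on which transcription of class II genes depends. It acts through factors bound at the X and Y boxes of class II promoters, whereas class I promoters also hold a kappaB element and an interferon response element.

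These elements can be read in the promoters of the genes whose levels are compared below. RefSeq promoter windows of the build GRCm38.p6 were at hand for 28 of the 39 members, and the 250 bases before the start of each were searched on both strands. The letters GATTGG of the Y box were in the windows of 8 of 8 class II members and 15 of 19 class I members, against 14.6% of all 32851 windows. The letters GCAAC of the X box were in 6 of 8 class II and 3 of 19 class I members, against 29.9% of all windows. In the class II stretches below, printed 5′ to 3′ along the gene, the capitals mark GCAAC and then GATTGG, which lay 24 to 27 bases apart.
H2-Aa: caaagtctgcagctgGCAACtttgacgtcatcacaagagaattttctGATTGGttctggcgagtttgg
H2-Eb1: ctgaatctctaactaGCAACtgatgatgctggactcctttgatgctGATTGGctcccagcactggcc
H2-Ob: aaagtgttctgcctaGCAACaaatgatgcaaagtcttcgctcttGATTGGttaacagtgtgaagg
H2-Oa: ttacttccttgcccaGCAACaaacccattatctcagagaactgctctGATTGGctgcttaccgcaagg
The stretch of H2-Aa was chr17:34287852-34287919 on the minus strand. Those on the plus strand were chr17:34305761-34305827 for H2-Eb1, chr17:34238803-34238867 for H2-Ob and chr17:34092288-34092355 for H2-Oa.

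The class I letters were not found in the windows of any of the 8 class II members. The kappaB letters GGGATTCC were in 3 of 19 class I members (H2-K1, H2-D1 and H2-Q7), against 0.889% of all windows. The letters TTTCACTT of the interferon response element were in 7 of 19 class I members, against 1.36% of all windows. H2-K1 and H2-D1 held both in the same order, with GGGATTCC and then TTTCACTT in capitals and 12 bases between them.
H2-K1: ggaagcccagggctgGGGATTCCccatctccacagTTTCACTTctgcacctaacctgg
H2-D1: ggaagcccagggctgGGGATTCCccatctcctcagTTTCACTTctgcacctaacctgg
The stretch of H2-K1 was chr17:34000415-34000472 on the minus strand, and that of H2-D1 was chr17:35262909-35262966 on the plus strand. The motifs were chosen with these sequences in view, and a match is a description of letters only.

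The share of spots well above background was 41.4% on the unnumbered LT-HSC array and 48.2% to 70.1% on the other arrays. On that array the 75th percentile of intensity was 53.1, against 243 to 534 elsewhere. Of the sort markers, Flt3 was higher in MPP than in ST-HSC (log2 difference 3.07), and Fcgr3, which codes for an Fc gamma receptor, was higher in GMP than in MEP (5.06). Cd34 was at 14.82 and 15.11 in LT-HSC and at 8.74 to 10.93 in MEP, although both gates were CD34-. Markers of other cells were also read. Ms4a1, a B cell gene, was at 10.06 and 8.92 on the LT-HSC arrays and at most 6.62 elsewhere, and the neutrophil genes S100a8 and Camp were called higher in HSC subsets than in myeloid populations. Since these are bulk samples, a higher level in all cells and a larger share of cells with the mRNA cannot be told apart.

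Both classes held genes whose level varied over the 6 populations. The moderated F-test in limma called 10 of 12 class II and 8 of 25 class I genes at a Benjamini-Hochberg adjusted p under 0.05, against 40.2% of all genes. The class II genes not called were H2-DMb2 and H2-Eb2. The class I genes called were B2m, H2-K1, H2-Q7, H2-Q8, H2-T22, H2-T23, H2-T24 and H2-M3.

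Of the 9 class II genes measured on all arrays, 8 had their highest mean in MPP and H2-DMa had it in CMP. H2-Ab1, the beta chain of the I-A molecule, was at 14.98, 15.30 and 14.91 in MPP and at 11.78, 12.84 and 13.26 in ST-HSC. In CMP it was at 13.78, 13.87 and 12.85, in GMP at 11.71, 11.61 and 11.13 and in MEP at 11.19, 11.24 and 10.51. The MPP arrays thus lay above all arrays of every other population, and the GMP and MEP arrays lay below all arrays of the others. The LT-HSC arrays were far apart, at 12.33 for the pooled array and 14.62 for the unnumbered array.

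Cd74 followed the same order except in LT-HSC, where both arrays were high. Its levels were 13.54 and 14.04 in LT-HSC, 10.67, 11.86 and 12.93 in ST-HSC, and 13.95, 14.20 and 14.47 in MPP. In the myeloid populations they were 12.18, 12.35 and 12.48 in CMP, 10.16, 9.56 and 10.30 in GMP, and 9.65, 9.67 and 10.55 in MEP. GMP and MEP overlapped, whereas CMP was clear of both.

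Ciita, the coactivator, was at 9.22, 9.78 and 10.41 in MPP and at 8.12, 8.58 and 9.16 in CMP. It was at 6.72, 7.07 and 8.24 in ST-HSC, at 6.18, 5.94 and 7.07 in GMP, and at 5.90, 6.18 and 6.98 in MEP. In LT-HSC the arrays read 7.56 and 10.34. H2-Aa, the alpha chain of I-A, was at 10.95 to 11.55 in MPP, 9.80 to 10.66 in CMP, 7.69 to 9.78 in ST-HSC, 7.68 to 8.10 in GMP and 7.30 to 7.86 in MEP, with 7.99 and 11.79 in LT-HSC. H2-Eb1, the beta chain of the I-E molecule, was at 12.60 to 13.21 in MPP, 10.29 to 10.69 in CMP and 8.33 to 8.94 over GMP and MEP.

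**Figure D1:**
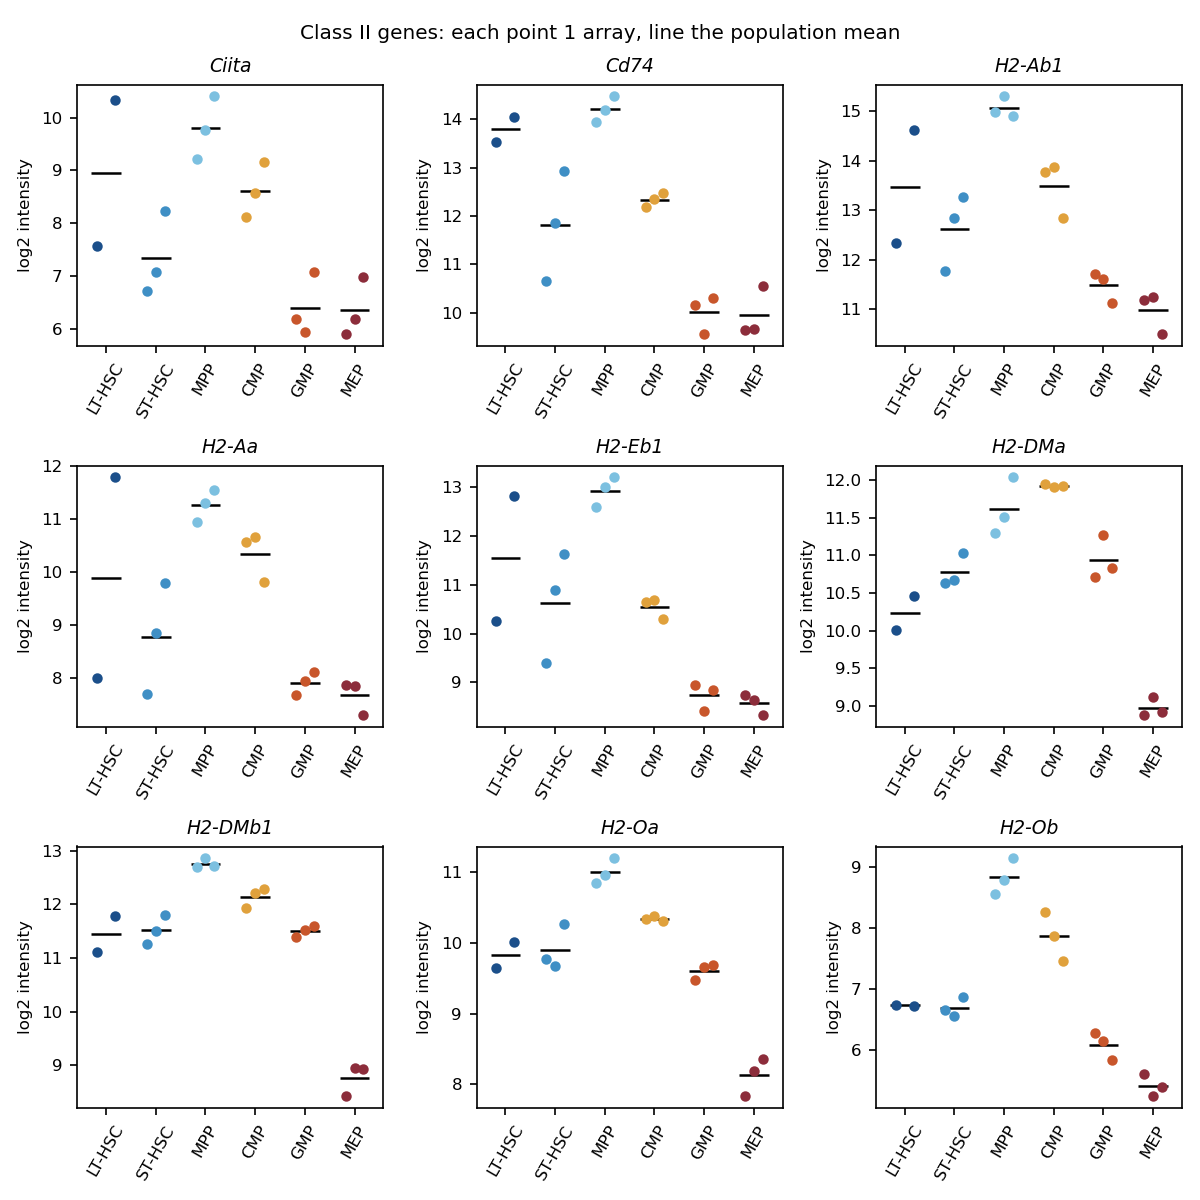
Log2 intensity (vertical axis) of 9 class II genes in the 6 populations (horizontal axis), with 1 point per array and a line at the population mean. For H2-Ab1, the 3 MPP arrays lie between 14.91 and 15.30, above every other array, and the LT-HSC arrays stand apart at 12.33 and 14.62.

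The H2-DM genes H2-DMa and H2-DMb1 and the H2-O genes H2-Oa and H2-Ob also had their lowest means in MEP. H2-DMb1, a chain of H2-DM, was at 12.69, 12.85 and 12.72 in MPP, 11.92, 12.21 and 12.28 in CMP, 11.40, 11.52 and 11.59 in GMP, and 8.43, 8.94 and 8.93 in MEP. Thus GMP lay among ST-HSC, which read 11.26 to 11.81, and LT-HSC, at 11.11 and 11.77, and MEP stood alone at the bottom. H2-DMa, the other chain, was highest in CMP (11.91 to 11.94) and MPP (11.30 to 12.03), at 10.71 to 11.27 in GMP, and at 8.88 to 9.13 in MEP. H2-Oa, a chain of H2-O, was at 10.84 to 11.19 in MPP, 9.47 to 9.68 in GMP and 7.84 to 8.37 in MEP. H2-Ob, its partner, was at 8.55 to 9.14 in MPP, 7.46 to 8.25 in CMP, 6.56 to 6.87 in ST-HSC, 5.83 to 6.29 in GMP and 5.25 to 5.60 in MEP.

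The remaining class II genes were near or below background. H2-DMb2 was well above background in all MPP and all CMP arrays and in no array of the other populations. H2-Eb2 was well above background on 1 of 17 arrays. H2-Ea, the alpha chain of I-E, which C57Bl/6 mice do not express because of a promoter deletion, was well above background only on the pooled LT-HSC array. Its level was 5.28 there and 5.23 on the unnumbered LT-HSC array, against at most 2.97 elsewhere.

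Over all arrays, class I mRNAs fell into genes that were higher in HSC subsets and genes that were not. H2-K1, a classical class I heavy chain, was at 16.48 and 16.46 in LT-HSC, 16.81, 16.87 and 16.75 in ST-HSC, and 16.87, 17.29 and 16.87 in MPP. In the myeloid populations it was at 15.88, 15.99 and 16.02 in CMP, 15.49, 15.67 and 15.62 in GMP, and 15.04, 15.20 and 14.80 in MEP. No array of the HSC subsets overlapped an array of the myeloid populations, and CMP, GMP and MEP were clear of each other. H2-D1, the other classical heavy chain of this strain, was at 14.89 to 15.53 over the HSC subsets and overlapped the myeloid arrays, which ran from 14.17 to 16.18.

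The same contrast recurred among other class I genes. H2-T22, a nonclassical heavy chain, was at 13.02 to 13.65 over the HSC subsets, and at 12.56 to 12.89 in CMP, 11.84 to 12.22 in GMP and 11.17 to 11.50 in MEP. H2-M3, which presents formylated peptides, was at 10.40 to 11.63 over the HSC subsets, 9.68 to 10.35 over CMP and GMP, and 8.01 to 8.73 in MEP. B2m, the light chain, was at 14.39 to 14.94 over the HSC subsets, 13.97 to 14.46 in CMP and 13.47 to 13.88 in MEP. H2-T23, which codes for Qa-1, was instead at 15.14 to 15.63 in CMP, which overlapped MPP (15.24 to 15.61), and at 14.40 and 14.79 in LT-HSC.

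**Figure D2:**
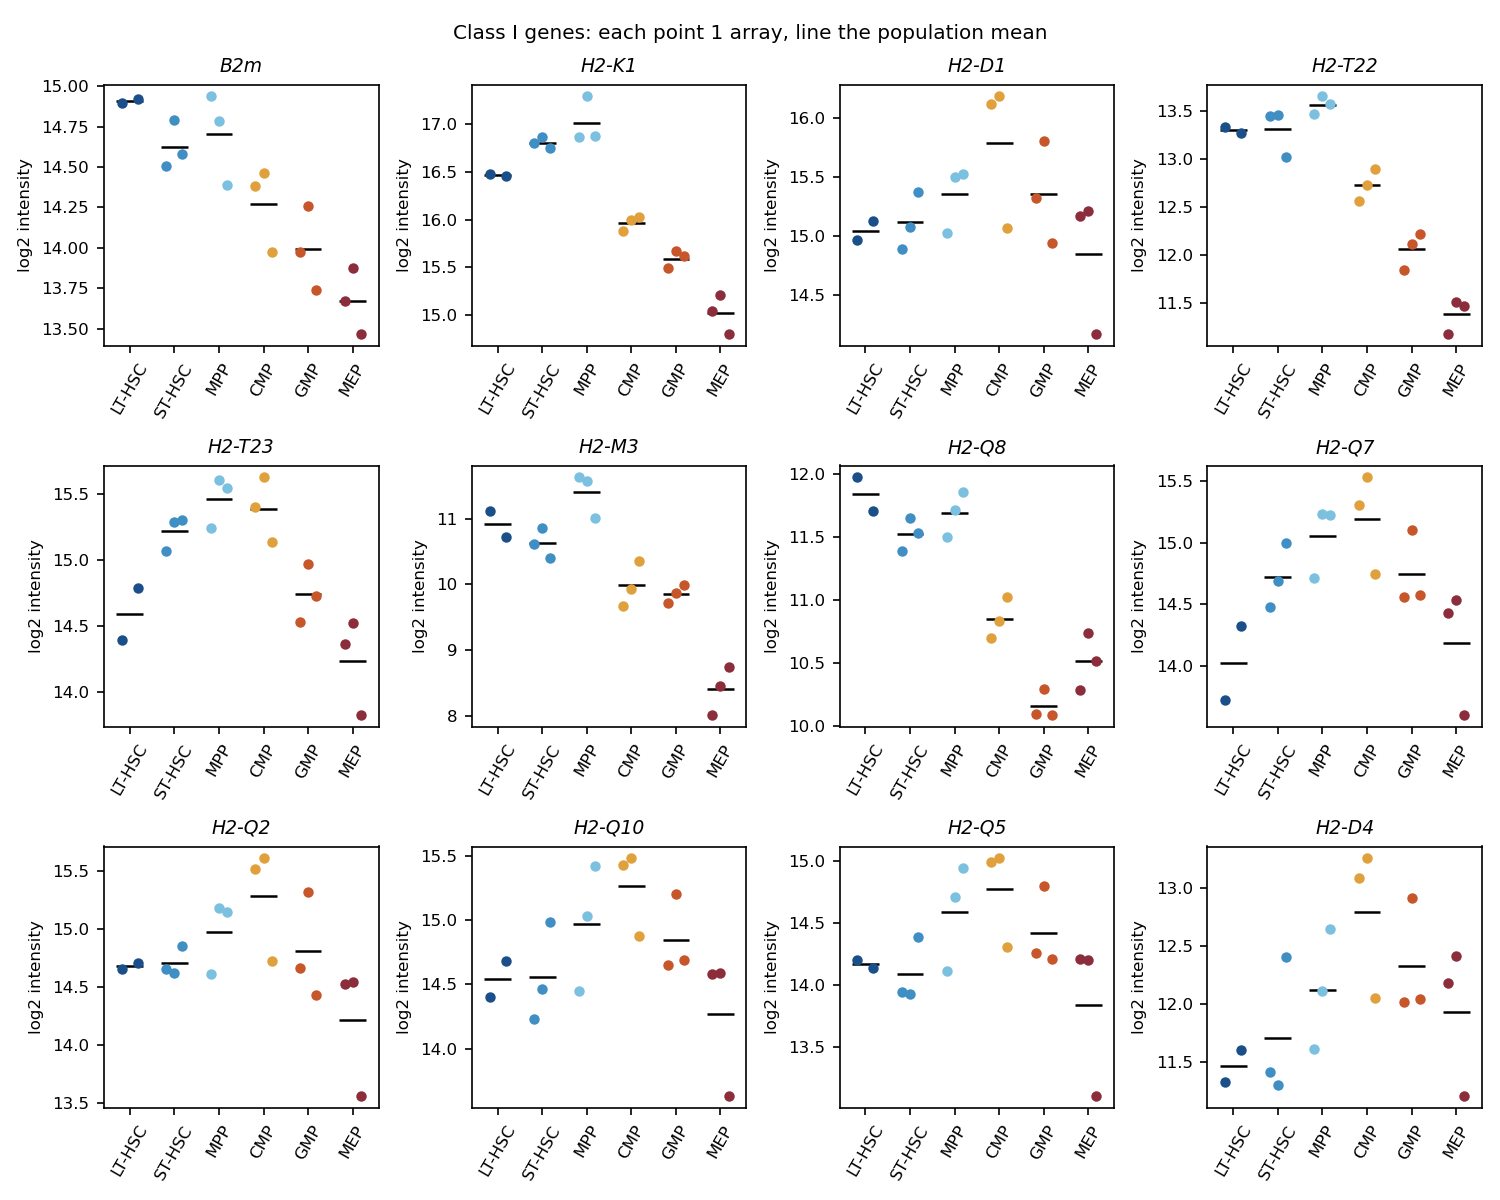
Log2 intensity (vertical axis, scaled per gene) of 12 class I genes in the 6 populations (horizontal axis), with 1 point per array and a line at the population mean. H2-K1 falls from 16.75 to 17.29 over ST-HSC and MPP to 14.80 to 15.20 in MEP, whereas H2-D1 overlaps between HSC subsets and myeloid populations.

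Against the myeloid populations, the HSC subsets held more of most class II mRNAs and of some class I mRNAs. Of the 12 class II genes, 9 were higher and none lower, and of the 25 class I genes, 7 were higher and H2-T24 was lower (-0.83). Over all genes 21.7% were called higher and 19.1% lower. The median log2 difference was 1.03 over the class II genes, 0.02 over the class I genes and 0.04 over all genes. Cd74 was 5.68-fold higher (log2 difference 2.50, SE 0.27, limma adjusted p = 9.59e-06), and H2-Eb1 was 5.36-fold higher (adjusted p = 1.12e-04). H2-Ab1 was 3.33-fold, Ciita 2.98-fold and H2-Aa 2.53-fold higher, but in none of the 9 were the HSC subsets clear of the myeloid arrays. For H2-Ab1, the CMP arrays lay among those of ST-HSC and LT-HSC. The 9 include H2-Ea, well above background on 1 of 8 HSC-subset arrays and on no myeloid array. H2-DMa missed the threshold (difference 0.26, adjusted p = 0.115).

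Among class I genes, H2-M3 was 2.96-fold higher in HSC subsets (log2 difference 1.57, SE 0.14, limma adjusted p = 2.80e-06), H2-T22 was 2.53-fold, H2-K1 2.36-fold and H2-Q8 2.26-fold higher. For each of them the HSC-subset arrays lay above all myeloid arrays, but the share of all genes without overlap is not given here. B2m was 1.70-fold higher (adjusted p = 1.62e-04). For H2-D1 the difference was -0.16 (SE 0.21, adjusted p = 0.568), and for H2-Q2, H2-Q5, H2-Q7 and H2-Q10 it lay between -0.11 and 0.02. H2-M1 was called higher but was well above background on no array. The numbers of class I genes well above background per array, on average 15.5 in HSC subsets (n = 8) and 14.4 in myeloid populations (n = 9), had a two-sided exact permutation p of 0.0964. For class II genes the averages were 9.62 and 9.33 (exact permutation p = 0.347). Both tests exchanged arrays freely and took no account of slide or scan date.

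The HSC and myeloid sorts shared a scan date in 2 cases. With MPP against CMP and GMP on one date, H2-K1 differed by 1.06, Cd74 by 3.08 and H2-Aa by 2.60. With ST-HSC against MEP on another, they differed by 1.95, 2.38 and 2.49. H2-D1, not higher in HSC subsets over all arrays, was higher on both dates, by 0.52 and 1.21. So were H2-Q2 (0.57 and 1.29), H2-Q5 (0.69 and 1.28), H2-Q7 (0.56 and 1.40) and H2-Q10 (0.64 and 1.35). Within these dates, these genes and H2-K1 thus differed in the same direction. Each of these dates held 1 array of the HSC subsets. With scan date as a block, H2-Aa (2.28, adjusted p = 0.142) and Ciita (1.80, adjusted p = 0.1002) were no longer called although their differences were larger. H2-Aa was also not called with slide as a random block (1.61, adjusted p = 0.0627) or without the unnumbered LT-HSC array (0.71, adjusted p = 0.0707), the unnumbered CMP array (adjusted p = 0.0504) or GMP 1 (adjusted p = 0.0501). Markers of mature cells moved as well. Of 11 B cell markers 7 were higher and 1 lower in HSC subsets, of 15 dendritic cell and macrophage markers 5 and 2, and of 10 T and NK cell markers 8 and 0, against 21.7% and 19.1% of all genes. Their part in the MHC levels was not tested.

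Probes of 1 class I gene did not always move together. Of 4 H2-K1 probes, 2 were higher in HSC subsets (1.24 and 1.26) and 2 were not (-0.24 and -0.18), and the latter were highest in CMP. H2-T22 had 1 probe at 1.34 and others at 0.29 and -0.14, and H2-M3 had probes at 1.57 and -0.21. The probe of H2-Q7 came within 11 edits of that of H2-T23 over 60 bases, and a probe of H2-K1 within 10 edits of that of H2-Bl. Class I heavy chains are near copies of each other, so the gene read by each such probe is uncertain. The chosen probes of H2-K1, H2-T22 and H2-M3 lay 29, 27 and 27 edits from the nearest probe of another member, and transcripts were not compared. Of class II, the 4 H2-Ab1 probes differed between HSC subsets and myeloid populations by 1.11 to 1.74, and the probes of H2-DMb1 by 1.10 and 0.15.

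**Figure D3:**
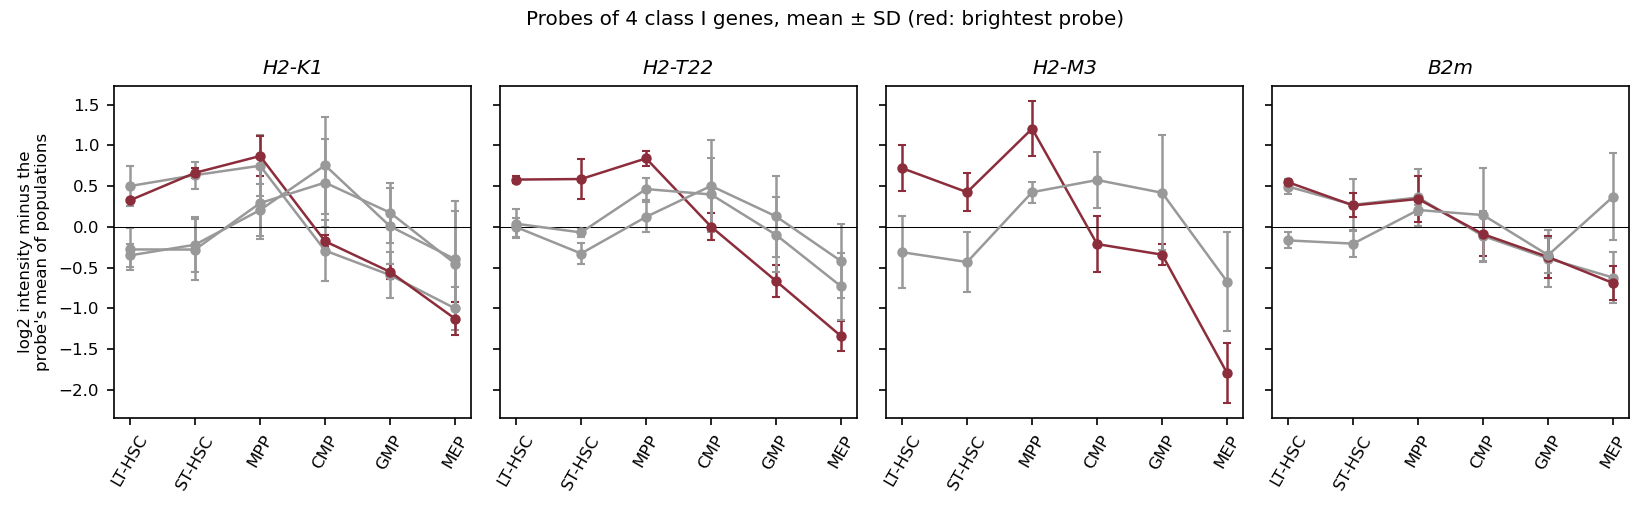
Mean log2 intensity ± SD of each probe of H2-K1, H2-T22, H2-M3 and B2m, minus that probe's mean of the populations (vertical axis), in the 6 populations (horizontal axis), n = 2 for LT-HSC and n = 3 elsewhere. The brightest probes, in red, fall from the HSC subsets to MEP, and some dimmer probes, in grey, peak in CMP.

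Within the HSC subsets, MPP held more class II mRNA than ST-HSC. Of the 12 class II genes, 5 were higher in MPP and none lower, and of the 25 class I genes none was called in either direction. Over all genes, 1.48% were called higher and 1.2% lower. The median difference was 1.92 over class II, 0.10 over class I and 0.01 over all genes. H2-Ab1 was 5.41-fold higher (2.44, SE 0.52, limma adjusted p = 0.0217), Cd74 5.24-fold (adjusted p = 0.00958), H2-Ob 4.38-fold (adjusted p = 1.63e-04), H2-DMb1 2.35-fold and H2-Oa 2.13-fold.

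H2-Aa, H2-Eb1 and Ciita differed by as much (2.50, 2.30 and 2.46) and had no overlap between arrays, but their adjusted p were 0.125, 0.0615 and 0.0677. The share of all genes without such overlap is not given here. H2-DMb2 was at least 2.33-fold higher in MPP, a bound set by the dimmest signal well above background in ST-HSC (adjusted p = 0.272). On the 1 scan date with both populations, Cd74 differed by 2.81, H2-Ab1 by 2.83 and Ciita by 2.61. Without either or both of the LT-HSC arrays, which entered the shared estimate of spread, 8 class II genes were called, and with the mean of all its probes H2-Ab1 was not called (2.46, adjusted p = 0.0988). The H2-Ab1 call was also lost without ST-HSC 2, ST-HSC 3 or any 1 of the MPP arrays (2.01 to 2.55, adjusted p of 0.0510 to 0.0962).

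Some genes of B cells and dendritic cells moved with this step. Of 11 B cell markers 3 were higher in MPP and none lower. Of 15 dendritic cell and macrophage markers 2 were higher and 1 lower, against 1.48% and 1.2% of all genes. Blnk, a B cell adaptor, differed between MPP and ST-HSC by 3.09, Igh-6, the mu heavy chain, by 2.98, and the dendritic cell gene Clec9a was at 5.94 to 7.67 in MPP and well above background on no ST-HSC array. Ccr7 was at 6.35 to 8.22 in MPP and well above background on 1 of 3 ST-HSC arrays. Over 11 B cell markers, the log2 of the summed intensity was 15.4 to 15.6 in MPP and 12.9 to 13.3 in ST-HSC, with 7 to 10 and 8 to 10 of them well above background. For 15 dendritic cell and macrophage markers it was 15.4 to 15.9 in MPP and 15.8 to 17.1 in ST-HSC, and their mean log2 intensity was 7.25 to 7.30 and 6.67 to 7.31. Ebf1 was well above background on no array. The part of such cells in the class II levels was not tested.

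LT-HSC differed from the mean of ST-HSC and MPP in few members. Of class II genes, H2-Ea was called higher (limma adjusted p = 3.68e-06), at the levels given above and well above background on 1 of 2 LT-HSC arrays, and H2-Ob (-1.03, adjusted p = 0.0115) and H2-DMa (-0.96, adjusted p = 0.0155) were lower. Of class I genes, H2-Q1 was called higher (adjusted p = 0.0260) through the pooled array alone, at 6.71 there and at 2.58, not well above background, on the unnumbered array, and H2-T23 was lower (-0.75, adjusted p = 0.0439). Over all genes, 5.53% were called higher and 2.45% lower. Of 11 B cell markers 6 were higher in LT-HSC and none lower. Of 15 dendritic cell and macrophage markers 1 was higher and 1 lower, and of 10 T and NK cell markers 2 and 0. The mean log2 intensity of the B cell markers was 7.90 to 8.42 in LT-HSC and at most 6.84 in ST-HSC and MPP. The part of such cells was not tested. For Cd74, H2-Ab1 and Ciita the differences were 0.78, -0.37 and 0.38, with adjusted p of 0.337, 0.743 and 0.790. Both LT-HSC arrays were on 1 slide that held no other population, so slide and population cannot be told apart. H2-Ob was not called without the unnumbered LT-HSC array (-1.03, adjusted p = 0.0947) or with the mean of its probes (-0.47, adjusted p = 0.118). With slide as a random block neither H2-DMa (adjusted p = 0.0512) nor H2-T23 (adjusted p = 0.146) was called, and H2-DMa was also lost without the pooled LT-HSC array (-0.73, adjusted p = 0.1004). H2-T23 was also lost without dim probes (adjusted p = 0.0609) and with 13 of 17 single arrays left out.

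Among the myeloid populations, CMP held more class II mRNA than MEP. Of the 12 class II genes, 9 were higher in CMP than in MEP, and of the 25 class I genes 8 were higher, with none lower, against 10.5% of all genes higher and 7.73% lower. H2-DMb1 was 10.4-fold higher (3.37, SE 0.21, limma adjusted p = 2.20e-07), H2-DMa 7.71-fold, H2-Aa 6.40-fold, H2-Ab1 5.74-fold, Cd74 5.22-fold and Ciita 4.82-fold. Of class I, H2-M3 was 3.00-fold, H2-T22 2.54-fold, H2-T23 2.22-fold and H2-K1 1.93-fold higher. The median difference was 2.33 over class II, 0.60 over class I and -0.10 over all genes. Markers of other cells moved too, with a log2 summed intensity of 14.9 to 15.1 in CMP and 11.3 to 12.7 in MEP for B cells, and of 15.2 to 15.4 and at most 14.5 for dendritic cells and macrophages, and their part was not tested. The mean log2 intensity of the B cell markers overlapped, at 6.30 to 6.85 and 5.70 to 6.40. Of the 11 B cell markers 4 were higher and 2 lower in CMP. Ciita was not called after normexp correction (1.33, adjusted p = 0.0614) or without CMP 2, the unnumbered CMP array, MEP 1 or MEP 2 (1.99 to 2.29, adjusted p of 0.0635 to 0.0894), and H2-Aa not without CMP 1, CMP 2 or the unnumbered MEP array (2.47 to 2.57, adjusted p of 0.0681 to 0.0748). With 75th percentile scaling H2-K1 was not called (0.35, adjusted p = 0.272) and 4 class I genes were called, 3 of them higher, and 4 were called without the CMP 1 array, without the CMP 2 array or without the unnumbered MEP array.

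Against GMP, CMP was higher in 5 of 12 class II and 2 of 25 class I genes, with none lower, where 3.65% of all genes were higher and 2.23% lower. Cd74 was 5.02-fold higher (2.33, SE 0.45, limma adjusted p = 0.00653), H2-Ab1 4.05-fold (adjusted p = 0.0367) and H2-Ob 3.42-fold (adjusted p = 2.40e-04). H2-DMa was 1.98-fold and H2-Oa 1.66-fold higher, and of class I H2-Q8 was 1.62-fold and H2-T22 1.59-fold higher. On the 2 scan dates with both populations, Cd74 differed by 2.40 and 2.18 and Ciita by 2.29 and 2.09. Of 11 B cell markers 3 were higher in CMP and none lower, with a median difference of -0.01. Their log2 summed intensity was 14.9 to 15.1 in CMP and 13.6 to 13.9 in GMP. Igh-6, the brightest of them, was at 14.62 to 14.80 and 12.90 to 13.36. The dendritic cell and macrophage markers had a mean log2 intensity over 15 markers of 7.67 to 7.91 in CMP and 7.11 to 7.28 in GMP. Of them, 13 to 14 and 10 to 11 were well above background. Their summed intensity ran the other way, at 15.2 to 15.4 in CMP and 15.9 to 16.6 in GMP, and its brightest gene, Lyz2, was at 14.65 to 14.91 and 15.58 to 16.41. Of these markers, Itgax was higher (2.75) and Emr1 lower (-2.51) in CMP. Their part was not tested. H2-Ab1 was not called with the mean of its probes (1.96, adjusted p = 0.153) or without any 1 of ST-HSC 3, MPP 2, MPP 3, CMP 1, CMP 2, the GMP arrays and MEP 1 (1.84 to 2.13). H2-Oa was not called with 75th percentile scaling (0.66, adjusted p = 0.132) or without any 1 of the CMP or GMP arrays (0.67 to 0.77), and H2-DMa not without CMP 1, GMP 1 or the unnumbered GMP array (0.88 to 0.98). With 75th percentile scaling H2-Q8 (0.61, adjusted p = 0.165) and H2-T22 (0.49, adjusted p = 0.463) were not called. The class II count was 2 without CMP 1, GMP 1 or the unnumbered GMP array, 3 without CMP 2 or GMP 2, and 8 without either LT-HSC array. The class I count was 0 without CMP 2, the unnumbered CMP array or GMP 1, and 1 without GMP 2 or the unnumbered GMP array.

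GMP and MEP differed in genes of H2-DM and H2-O, and none of the I-A and I-E chains was called. Of the 12 class II genes, H2-DMb1 (6.66-fold, limma adjusted p = 6.07e-07), H2-DMa (3.89-fold), H2-Oa (2.78-fold) and H2-Ob (1.60-fold, adjusted p = 0.0408) were higher in GMP. H2-Ab1 differed by 0.50 (SE 0.52, adjusted p = 0.660), and Cd74, Ciita, H2-Aa and H2-Eb1 by 0.06, 0.05, 0.24 and 0.17, with SE of 0.45 to 0.74. Of the 25 class I genes, H2-M3 (2.74-fold), H2-T22 (1.60-fold) and H2-K1 (1.49-fold) were higher. No member was lower, against 10.5% of all genes higher and 8.51% lower. The summed markers were also higher in GMP, at 15.9 to 16.6 against at most 14.5 for dendritic cells and macrophages and at 13.6 to 13.9 against 11.3 to 12.7 for B cells, and their part was not tested. The mean log2 intensity of the B cell markers overlapped, at 5.55 to 6.19 in GMP and 5.70 to 6.40 in MEP. Of the 11 B cell markers 2 were higher and 3 lower in GMP, with a median difference of -0.46. H2-Ob was not called after normexp background correction (0.20, adjusted p = 0.278), with the authors' table (0.39, adjusted p = 0.0956), with the mean of its probes (0.39, adjusted p = 0.151), with 75th percentile scaling (0.81, adjusted p = 0.0501), or without any of ST-HSC 2, MPP 3, CMP 2, GMP 1, GMP 2, MEP 2 and the unnumbered MEP array (0.57 to 0.68). With 75th percentile scaling H2-K1 (0.17, adjusted p = 0.633) and H2-T22 (0.51, adjusted p = 0.189) were not called, nor was H2-K1 with the mean of its probes (0.50, adjusted p = 0.202) or without GMP 2 (0.54, adjusted p = 0.0515).

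**Figure D4:**
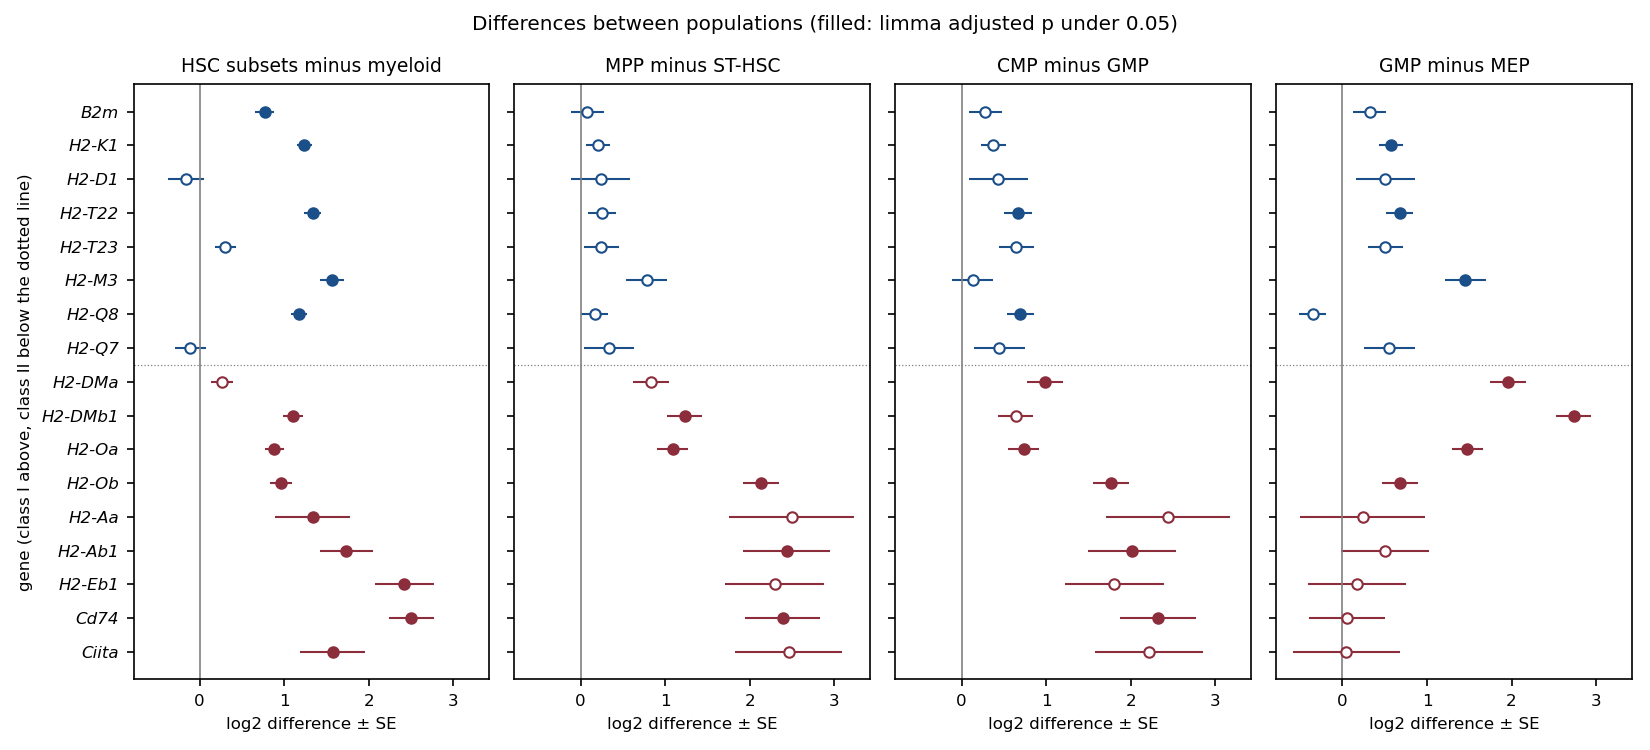
Log2 differences ± SE (horizontal axis) of 8 class I genes (blue) and 9 class II genes (red) for 4 comparisons between populations. Filled points had a limma adjusted p under 0.05. For MPP minus ST-HSC the class I genes lie between 0.08 and 0.78 and the class II genes between 0.83 and 2.50, and for GMP minus MEP H2-DMb1 is highest at 2.74 while Cd74 and Ciita lie near 0.

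Of 17 proteasome and peptide loading genes that supply class I, 10 were higher in GMP than in MEP and none lower, against 10.5% and 8.51% of all genes, and 5 were higher with 75th percentile scaling. In CMP 9 were higher than in MEP and Psme3 was lower (-0.63), against 10.5% and 7.73%. With 75th percentile scaling 4 were higher and 3 lower, and with 1 array left out 7 to 9 were higher. Psme3 was not called without any 1 of the CMP arrays, MEP 1 or MEP 2 (-0.64 to -0.56). Psmb8, an immunoproteasome subunit, had means of 14.5 in CMP, 14.1 in GMP and 12.0 in MEP, a difference of 2.12 between GMP and MEP. Psmb9 (1.41, with 1 ST-HSC value left out as an outlier spot), Psmb10 (1.10) and Tapbpl (1.37) were also higher in GMP, and Calr, a chaperone, was higher in GMP than in MEP (2.11) and 2.47-fold higher than in CMP. Psmb10 was not called with 75th percentile scaling (0.80, adjusted p = 0.0969). Between HSC subsets and myeloid populations 5 were higher and 6 lower, against 21.7% and 19.1% of all genes, but with scan date as a block 2 were higher and 1 lower, with slide as a random block 3 and 3, and with 75th percentile scaling 2 and 5. Tap1, a subunit of the peptide transporter, was lower (-1.37). The Tap1 difference changed sign and was not called with scan date as a block (0.37, adjusted p = 0.660), and was not called with slide as a random block (-0.86, adjusted p = 0.146). None was called between MPP and ST-HSC.

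Of 8 genes of class II processing, 4 were higher and 2 lower in GMP than in MEP, against 10.5% and 8.51% of all genes. Of these, Ctsb (0.64) was not called with 75th percentile scaling (0.42, adjusted p = 0.447) or without the unnumbered GMP array, MEP 1 or MEP 2 (0.52 to 0.60), March1 (1.98) not after normexp correction (0.80, adjusted p = 0.0515), and Ifi30 (-0.74) not with scan date as a block (-0.66, adjusted p = 0.0648) or without GMP 1, the unnumbered GMP array or any 1 of the MEP arrays (-0.78 to -0.63). Ctss, the cathepsin that trims the invariant chain, had means of 14.7 in LT-HSC, 12.9 in CMP, 11.9 in GMP and 8.9 in MEP. Ctsh was 3.85 higher in GMP than in MEP, and Lgmn was 3.08 higher in CMP than in GMP (1.94 after normexp correction). March1, a ligase that removes class II from the surface, was higher in HSC subsets than in myeloid populations (1.51), but was not called with scan date as a block (1.09, adjusted p = 0.201).

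Of 12 regulators measured, Irf8 was the only one called between MPP and ST-HSC (2.06 higher in MPP), against 1.48% of all genes higher and 1.2% lower. Irf8 was 5.73 higher in CMP than in MEP. The MPP call was lost without any 1 of the ST-HSC arrays, MPP 2 or MPP 3 (1.92 to 2.13). Between HSC subsets and myeloid populations, 4 regulators were higher and 3 lower, against 21.7% and 19.1% of all genes. Irf2 was 2.46-fold higher and Nfyc (-1.61) and Rfxap (-0.34) were lower. With scan date as a block, Irf2 (0.57, adjusted p = 0.306), Nfyc (-0.65, adjusted p = 0.253) and Rfxap (-0.33, adjusted p = 0.105) were not called. Irf1 (1.06) and Crebbp (1.15) were called higher with their brightest probe but not with the mean of their probes (-0.01 and 0.03, adjusted p = 0.971 and 0.819). Rfx5 was called lower (-0.80), but its difference was -0.47 without the unnumbered LT-HSC array (adjusted p = 0.130), -0.21 without LT-HSC (adjusted p = 0.488) and 0.05 with 75th percentile scaling (adjusted p = 0.773). Of 8 class I-like genes outside the MHC, 4 were higher in GMP than in MEP, against 10.5% of all genes, among them Fcgrt, the neonatal Fc receptor, and Hfe, a regulator of iron uptake (4.08). Fcgrt was well above background on no MEP array and at least 6.02-fold higher in GMP (limma adjusted p = 2.02e-05), and after normexp correction the differences were 1.16 for Fcgrt and 2.49 for Hfe. Hfe was lower in CMP than in GMP (-1.93), but not called without any 1 of the CMP or GMP arrays (-2.03 to -1.79).

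**Figure D5:**
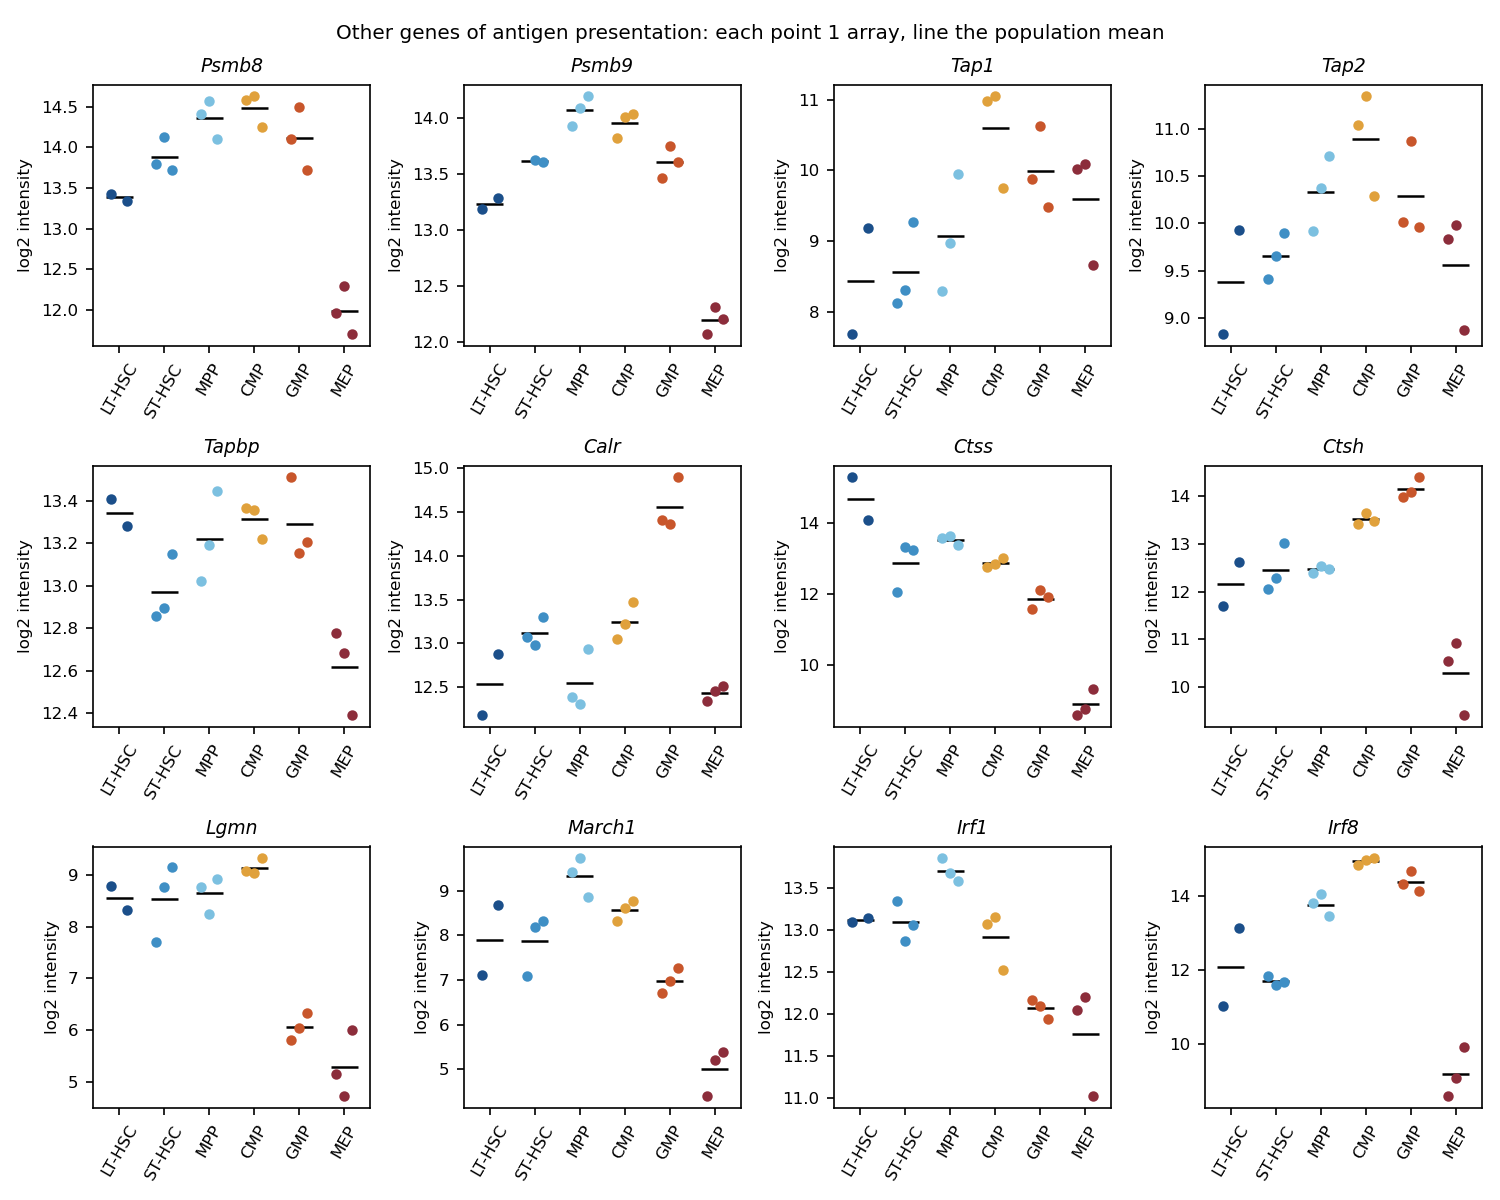
Log2 intensity (vertical axis, scaled per gene) of 12 other genes of antigen presentation in the 6 populations (horizontal axis), with 1 point per array and a line at the population mean. Psmb8, Ctss, Ctsh and Irf8 are lowest in MEP, with means of 12.0, 8.9, 10.3 and 9.2.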

How the data were processed

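The mRNA of 6 populations was read on 17 single-color arrays. Per the file headers, the scanner text that the authors deposited holds a background-corrected intensity per spot, with no step that ties arrays together. A second deposited file, of log2 values, was already quantile normalized by the authors and served as an alternative. Here the log2 intensities of all 45018 spots were quantile normalized (limma 3.58.1, R 4.3.3), after which 1639 control spots and all outlier spots were dropped. Spots were averaged per probe, and the brightest probe stood for each of 28090 gene names. lmFit and eBayes estimated 1 mean per population from all arrays, and p-values were adjusted by Benjamini-Hochberg over all genes at 0.05. The scanner software's own mark decided which signals were well above background. The fit was tested on simulated data.

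Members, gene lists and motifs were chosen with earlier results of these data known. Named genes were B2m, H2-K1, H2-D1, H2-L (not found by name), the H2-Q, H2-T and H2-M genes called in the F-test, the class II genes, and in each list up to 3 of the largest differences each way among called genes without overlap. Other genes were named after their values were seen. Nlrc5 was not found by name, and Ighm was read as Igh-6. Replicates were pools of mice, and the number of arrays limits the precision. The alternatives were scaling to the 75th percentile, normexp (offset 50), the second deposited file, a dim probe filter that kept 19639 genes, blocks for scan date, slide (random) and replicate number, averaging a gene's probes, omitting LT-HSC, and omitting single arrays. A block of 3 scanning runs was chosen after seeing the data.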

Additional observations from a re-analysis of the deposited data

How the results depend on the processing

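A chosen set of members, which left out the called genes H2-Ea, H2-M1, H2-M10.2, H2-Q1, H2-Q10, H2-T24 and H2-Ke6, was followed through the alternatives. None of its 51 called differences changed sign under any alternative. Of 507 values under the alternatives other than leaving out 1 array, 475 stayed called and 32 did not; with 1 array left out, 780 of 867 stayed called. With 75th percentile scaling, 4 class I genes were called for CMP against MEP (8 in the main analysis), 0 for CMP against GMP (2) and 5 for LT-HSC (2). That scaling moved the median of all genes between HSC subsets and myeloid populations from 0.04 to 0.38, and the genes called higher and lower from 6083 and 5355 to 8426 and 3613. For LT-HSC they went from 1554 and 689 to 3954 and 437, and for CMP against GMP from 1024 and 627 to 931 and 844 with normexp. For LT-HSC, class I counts were 4 with normexp, 0 once dim probes were dropped, 0 when slide was a random block and 4 when scanning run was a block, and class II counts were 5 (3) with normexp, with the authors' table and with scan date as a block. For MPP against ST-HSC, 8 class II genes (5) were called with normexp, the authors' table, slide, scanning run or replicate number as a block, or without LT-HSC, and 1 class I gene (0) with scan date, slide or scanning run as a block. For CMP against GMP, 8 class II genes (5) were called with slide as a block or without LT-HSC, 9 with the replicate block, and 1 class I gene with the mean of all probes. For GMP against MEP, 6 class I genes (3) were called with scanning run as a block. The cause of these changes was not tested. With 1 array left out, class I counts ran from 4 to 11 for CMP against MEP, 0 to 2 for CMP against GMP and 0 to 2 for LT-HSC, and class II counts from 2 to 8 for CMP against GMP and 4 to 8 for MPP against ST-HSC. For LT-HSC, the class I count was 0 without ST-HSC 2 or MPP 3 and 1 without any of ST-HSC 3, the unnumbered ST-HSC array, MPP 2, the unnumbered MPP array, CMP 1, CMP 2, any GMP array or MEP 1. Of 14 pairs of same-numbered arrays (r from -0.06 to 0.53), 8 deviated together with r over 0.1, all of them with both arrays on 1 slide. The other 6, on different slides, had r of -0.06 to 0.02. Pairs of unlike number on 1 slide were not compared, so the parts of number and slide were not separated. The labels do not say what a number marks. With the replicate block the LT-HSC calls of H2-T23 (-0.41, adjusted p = 0.392) and H2-DMa (-0.83, adjusted p = 0.0869) were lost, and apart from the class II counts given above it changed no count of members by over 1.5 times. The dim unnumbered LT-HSC array limits every value of LT-HSC.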

Other observations

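The H2 names of neither class lie within the complex but code for other proteins. H2-Ke6 was lower in HSC subsets than in myeloid populations (log2 difference -0.71, SE 0.19, limma adjusted p = 0.0107), with levels of 8.79 to 10.10 and 9.44 to 10.60. H2-Ke2 was not called in the F-test (adjusted p = 0.205).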
